A study of Gallus gallus and Anas platyrhynchos and Coturnix japonica with 43 samples.

Results

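Turkey hypothalamus was compared with chicken hypothalamus on a spotted array of chicken cDNA clones. The 7 arrays, 3 of White turkey hypothalamus and 4 of lean line chicken hypothalamus, were taken by their labels from the 43 arrays of the study, which put tissues of several birds on this chicken array. For the turkeys, age, sex and rearing are not stated in the labels used here. The chicken samples came from cockerels of a line selected for low abdominal fat, 9 weeks old and fed without restriction, so line, age, rearing and species cannot be told apart. No treatment or transgene is named for either group. Every array carried sample cDNA labelled with Cy3 and, labelled with Cy5, cDNA of a chicken reference pool made of hypothalamus, liver, breast muscle and abdominal fat RNA. The labelled pool was mixed afresh for every set of slides hybridised on a day, and the labels used here do not place arrays in sets, so a set's effect on the ratios was not tested. Nothing in the labels states that replicates were different birds, so the scatter behind each p-value may be technical. In the main test that scatter was pooled within the groups of all 43 arrays, not taken from these 7 alone.

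The hypothalamus is the part of the forebrain that controls feeding, body temperature, reproduction and the pituitary gland. Its neurons release peptides, such as neuropeptide Y, which promotes feeding, and the peptides cut from pro-opiomelanocortin, some of which reduce it. A chicken cDNA clone binds turkey cDNA through sequence that both birds share. A spot's value for turkey therefore depends on how much transcript was present and on how closely it matches the chicken clone, and these cannot be told apart here. The same holds for fewer cells of a type against less RNA per cell.

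All values are log2 ratios of sample to chicken pool, each array centred on its median, and a difference is turkey minus chicken in log2 units with its standard error (SE). The sample is likely the numerator, because on chicken arrays the markers of hypothalamus and of liver lay above 0 in their own tissue. A probe is a clone, read on 1 or more spots, and a gene is the mean of the clones that name it. "Called" means an adjusted p under 0.05 in limma's test, adjusted by Benjamini-Hochberg over all 18547 probes or all 6428 genes. No sequences of the clones were used here.

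The arrays matched their tissue label. The median of 10 measured neuron markers was 1.09, 0.69 and 0.35 on the turkey arrays, against 1.39, 0.70, 0.20 and 0.61 on the chicken arrays. On turkey replicate 3, STMN3 and STMN2 read -0.73 each, NEFL -0.30 and GAP43 -0.29. Quail liver replicate 2 had a neuron median of 0.42, above turkey replicate 3 and chicken replicate 3, but a liver marker median of 0.84. The medians of 4 liver markers and of 4 muscle markers lay below 0 on all 7 arrays, at -1.23 or lower. GFAP, the only measured astrocyte marker, lay below 0 on all 3 turkey arrays and on chicken replicate 3. The median ratio before centring ran from 0.849 to 1.41 on the turkey arrays and from 0.535 to 1.83 on the chicken arrays. Replicates were loosely related: Pearson's r across probes was 0.04 to 0.39 between turkey arrays and -0.17 to 0.63 between chicken arrays. Turkey replicate 1 correlated with chicken replicate 1 at 0.62, above any pair of turkey arrays. Also above any such pair were turkey replicate 1 with chicken replicate 2 and turkey replicate 2 with chicken replicate 4, both at 0.53. Turkey replicate 3 was likewise above with chicken replicates 3 and 4, at 0.49 and 0.48. The remaining pairs across species were lower, down to -0.14. Outside the 7 arrays, the array labelled chicken muscle replicate 4 had a muscle marker median of -1.90 and the array labelled sparrow liver replicate 1 one of 1.78, against their labels. Both enter the shared estimate of spread. So does duck hypothalamus replicate 3, with a neuron marker median of -0.43, against 1.02 and 0.31 on the other duck hypothalamus arrays. The counts without these 3 arrays are given beside the main ones.

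Few features were called, and in the main fit all of them read lower in turkey. Only differences of 4.3-fold or more were called, so the small count does not show that few features differ. Of 18547 probes, 46 were lower in turkey hypothalamus, which is 0.248% of those tested, and 0 were higher. At an unadjusted p under 0.05, 456 probes were lower (2.46%) and 122 higher (0.658%). The called differences ran from -3.33 to -2.10. On all 46 probes the turkey arrays lay below every chicken array, against 2.52% of all probes, which their choice on the same values favours. Of 6428 genes, 9 were lower (0.14%) and 0 higher, while 146 were lower (2.27%) and 61 higher (0.949%) at an unadjusted p under 0.05.

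The counts rest on single arrays. Without turkey replicate 2, 0 probes and 0 genes were called, and without turkey replicate 3, 1 probe and 0 genes. Leaving out chicken replicate 1 left 2 probes and 0 genes, and leaving out chicken replicate 2 left 1 probe and 0 genes. Without turkey replicate 1, 81 probes and 9 genes were called, and without chicken replicate 3, 33 probes and 5 genes; without chicken replicate 4 the numbers were 43 probes and 6 genes. Without the 3 arrays in doubt, 95 probes, 1 of them higher in turkey, and 19 genes were called. Without centring, and with every array at the same median absolute deviation, 2 probes and 0 genes were called. Array weights gave 171 probes, 5 of them higher in turkey, and 29 genes. The 46 probes read lower in turkey under every setting tried.

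The 9 called genes are signalling kinases, enzymes of ubiquitin and ADP-ribose chemistry and single genes of other roles. Where their clones lay on the slide is given further below. Kinases come first. SNRK, a kinase of the family of the energy sensor AMPK, read -1.08, -1.95 and -2.20 on the turkey arrays, against 1.53, 1.74, 0.50 and 0.56 on the chicken arrays. Its difference was -2.83 ± 0.56 (SE, adjusted p = 0.0127), a ratio 7.1 times lower in turkey. CAMKK2, a calcium-dependent kinase that activates AMPK and in mouse acts in feeding neurons of the hypothalamus, read -1.93, -2.22 and -2.80 in turkey, against 1.34, 0.37, -0.38 and -0.41 in chicken. Its difference was -2.55 ± 0.50 (adjusted p = 0.0127). For both kinases every turkey array lay well below the lowest chicken array, and chicken replicates 1 and 2 were the highest.

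ARIH1 is a ubiquitin ligase that works together with cullin-RING ligases. The gene read -1.01, -1.55 and -2.02 in turkey hypothalamus, against 0.95, 0.76, 1.10 and 0.38 in chicken hypothalamus, with a difference of -2.32 ± 0.46 (SE, adjusted p = 0.0127) and a ratio 5.0 times lower. It was the only called gene read by more than 1 clone. On the first clone the turkey values were -1.68, -1.37 and -1.35, against 1.65, 1.76, 1.39 and 0.65 in chicken, a difference of -2.83 ± 0.62 (adjusted p = 0.0285). The second clone gave -0.34, -1.72 and -2.68 in turkey, against 0.26, -0.24, 0.80 and 0.11 in chicken, a difference of -1.82 ± 0.52 that was not called (adjusted p = 0.153). The groups did not overlap on either clone, although turkey replicate 1 lay just under the lowest chicken value on the second. Across the 18 alternative settings the difference of ARIH1 ran from -2.68 to -2.08, and in 7 of them it was not called, with adjusted p from 0.000808 to 0.284.

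OARD1 removes ADP-ribose from proteins. It read -0.94, -2.72 and -2.33 in turkey, against 0.39, -0.08, 0.39 and -0.26 in chicken, a difference of -2.10 ± 0.40 (adjusted p = 0.0127). H3F3C, a replacement histone H3, read -1.34, -3.43 and -3.05 in turkey, against 0.31, 0.76, 0.52 and -0.31 in chicken. Its difference of -2.93 ± 0.57 (adjusted p = 0.0127) was the largest of the 9. Turkey replicate 1 was the highest turkey array for both genes and stood between the other turkey arrays and the chicken arrays.

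PWP1, a WD-repeat protein, read -1.04, -2.73 and -2.18 in turkey, against 0.89, 0.36, -0.10 and -0.03 in chicken, a difference of -2.26 ± 0.42 (adjusted p = 0.0127). SMIM15, a small membrane protein, had the turkey values closest together, at -1.78, -2.05 and -2.29 in turkey, against 0.88, 0.61, 0.42 and 0.31 in chicken, a difference of -2.60 ± 0.56 (adjusted p = 0.0378). CYP2D6, a cytochrome P450 that oxidises drugs in human liver, differed by -2.44 ± 0.53 (adjusted p = 0.0378), with -1.18, -1.72 and -2.63 in turkey and 1.15, 0.53, 0.58 and 0.14 in chicken. ICOSLG, the ligand of a T cell costimulator, differed by -2.38 ± 0.53 (adjusted p = 0.0462). Its turkey values were -2.02, -2.90 and -2.67, against -0.15, -0.10, 0.08 and -0.43 in chicken. No chicken array overlapped a turkey array for any of the 9 genes, against 2.29% of all genes lower without overlap. The choice of the 9 on these same values favours this. Of the 18 alternative settings, ICOSLG was not called in 12, SMIM15 in 10 and CYP2D6 in 9.

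**Figure D1:**
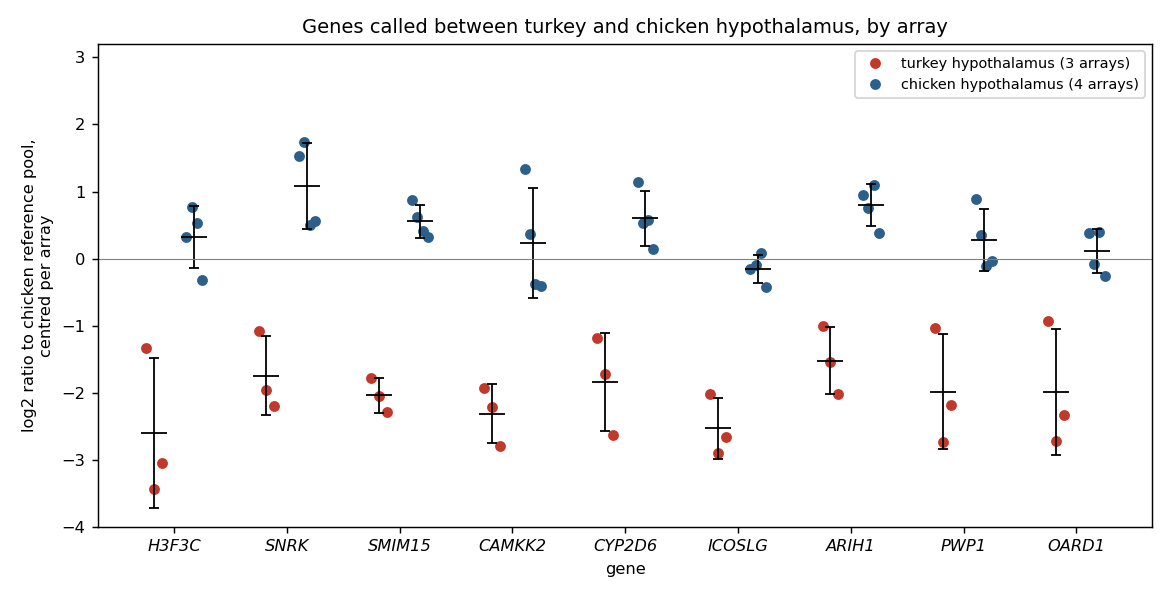
Log2 ratio to the chicken pool (y axis) of the 9 called genes (x axis) on the 3 turkey hypothalamus arrays, left, and the 4 chicken hypothalamus arrays, right; horizontal bars are means and error bars 1 SD. All turkey points lie below all chicken points of the same gene, and turkey arrays reach -3.43 for H3F3C.

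The largest probe differences included clones whose gene was not called. Clones of PDXP, the phosphatase of pyridoxal phosphate, of BMP7, a growth factor, and of ABAT, which breaks down the transmitter GABA, were among the 15 probes with the largest differences. The PDXP clone read -0.86, -2.89 and -3.17 in turkey, against 1.10, 1.85, -0.63 and 0.40 in chicken, a difference of -2.98 ± 0.67 (adjusted p = 0.0286). The BMP7 clone gave -1.24, -2.09 and -2.07 in turkey, against 1.52, 1.43, 0.76 and 0.37 in chicken, a difference of -2.82 ± 0.56 (adjusted p = 0.0137). For the ABAT clone the values were -0.83, -2.67 and -2.32 in turkey, against 1.02, 1.84, 0.60 and -0.04 in chicken, a difference of -2.79 ± 0.48 (adjusted p = 0.00367). On all 3 clones turkey replicate 1 was the highest turkey array.

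Other clones of the same 3 genes did not show it. The second PDXP clone differed by -0.37 ± 0.51, the second BMP7 clone by 0.44 ± 0.60 and the second ABAT clone by 0.14 ± 0.59, with an adjusted p near 1 for each. In all, 21 genes had a called clone, 9 of them with no other clone and 12 with 19 other clones. Those 19 differed by -1.82 to 0.98 with a median of 0.07, and 7 were lower in turkey. The second clone of ARIH1 was the only one of the 19 lower at an unadjusted p under 0.05. Clones that name the same gene gave unlike readings here, a contrast that choosing the called clones on these same values favours. The clones' sequences were not used here, and whether these readings followed the clones' place on the slide was not tested. Of the 46 called probes, 25 had no gene symbol and 45 were read on a single spot. The 2 unnamed probes with the largest differences differed by -3.33 ± 0.53 (adjusted p = 0.00165) and by -3.24 ± 0.75 (adjusted p = 0.0339).

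Where the spots lay on the slide moved with the calls. Each array is printed in 48 blocks of 20 rows, and 1 probe lies on 2 spots, so that 47 spots carried the 46 probes. Row 3 held 19 of the 47 and rows 1 to 3 with row 14 held 36, or 76.6%, on 20% of the spots; these 4 rows were picked after the counts were seen. In row 3, 1.98% of spots were called, against 0.0716% in the rows outside these 4. The 5th percentile of the difference was -1.68 in row 3 and -1.45 in row 2. In the rows outside these 4 that name genes it ran from -0.84 to -0.48. It was -0.25 in row 20, whose spots name no gene and whose median difference, 0.33, was the highest of all rows. In liver the same percentile was -1.47 in row 3 and -1.24 in row 2. Rows explained 5.48% to 14.7% of the variance of a turkey array and 6.50% to 19.1% of that of a chicken array. Blocks explained 6.64% to 28.9% on the turkey arrays, most on replicate 2, and 3.61% to 20.4% on the chicken arrays. With the median of each row and block taken off, a setting chosen after seeing the data, 55 probes and 9 genes were called, 36 and 8 of them among the main calls, and 64.3% of the called spots lay in these 4 rows. The clone of SNRK lay in row 1, those of CAMKK2 and H3F3C in row 2 and that of PWP1 in row 15. Row 3 held the clones of SMIM15, CYP2D6 and ICOSLG, the called ARIH1 clone and 1 of 2 OARD1 spots. The second ARIH1 clone lay in row 17. The called clones of PDXP, BMP7 and ABAT lay in rows 14, 3 and 2, and their second clones in rows 19, 10 and 14. Uncalled clones of CCNI and TTLL11 in row 1 differed by 0.44 and -0.14. Among the clones of genes with a called clone, all those in rows 1 to 3 came from a single series of clone names. Their clones in other rows came mostly from other series, so row and clone series cannot be told apart here. What the rows hold in common was not tested beyond this.

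**Figure D2:**
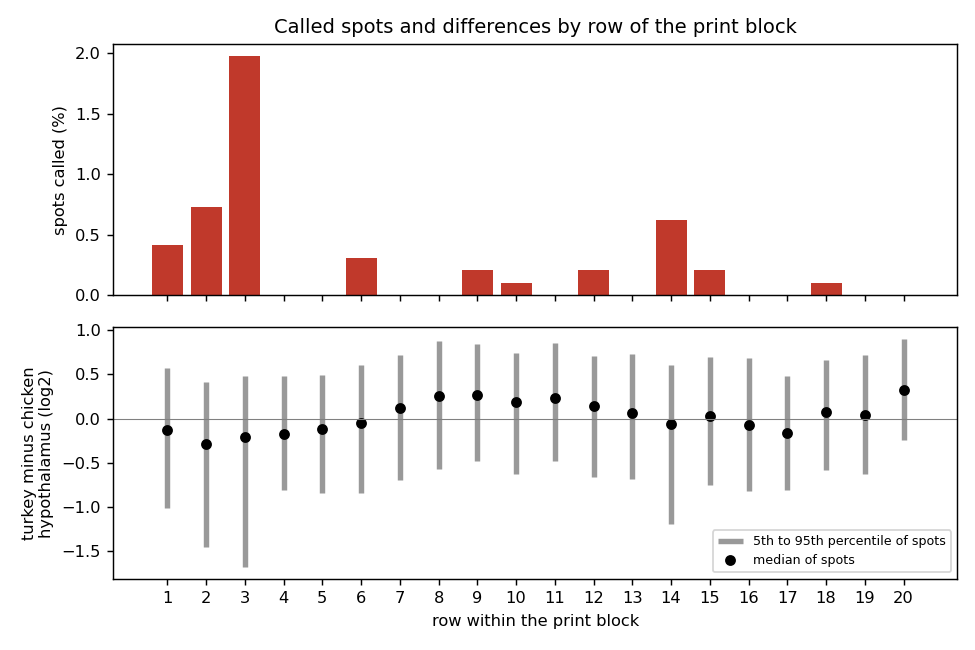
Percent of spots called (top) and turkey minus chicken difference in log2 units (bottom, black point the median of a row's spots, grey bar the 5th to 95th percentile) for each of the 20 rows of the print block. Row 3 has the highest share, 1.98%, and rows 2, 3 and 14 reach lowest at the 5th percentile.

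Liver arrays of turkey and chicken gave a second reading on other slides. Turkey liver and chicken liver, 4 arrays each, did not enter the hypothalamus means or their difference, but with all other arrays they entered the spread estimate behind the calls. The labels do not tie the turkey livers to the turkeys whose hypothalami were used. Liver and hypothalamus arrays share the kind of chicken pool but no sample. The chicken livers came from broilers 6 weeks old, another line and age than the chicken hypothalami. All 46 probes read lower in turkey liver, 43 of them at an unadjusted p under 0.05, against 3.59% of all probes. On 35 of the 46 the liver groups did not overlap, against 2.09% of all probes. Both background shares are over all print rows, and a share within the rows that held most calls was not worked out. Some of those rows also reached low in liver, with a 5th percentile of -1.47 in row 3, -1.24 in row 2 and -1.20 in row 14, against -0.81 in row 1. Their liver differences ran from -2.58 to -0.02 with a median of -1.62. In limma's test 2 of the 46 were called in liver, where 9 of 18547 probes were called in either direction (0.0485%).

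The 9 genes behaved likewise. All were lower in turkey liver at an unadjusted p under 0.05, against 3.61% of all genes, and on 6 of them the liver groups did not overlap, against 1.9% of all genes. None was called in liver, where 3 of 6428 genes were (0.0467%). CYP2D6 averaged -2.32 ± 0.56 in turkey liver and -0.05 ± 0.44 in chicken liver (SD, n = 4 each), a difference of -2.28 ± 0.49 (SE, adjusted p = 0.0545 by limma). For CAMKK2 the means were -2.20 ± 0.77 in turkey liver and -0.00115 ± 0.17 in chicken liver, a difference of -2.20 ± 0.47 (adjusted p = 0.051). ARIH1 averaged -2.10 ± 0.13 in turkey liver and -0.73 ± 0.26 in chicken liver, a difference of -1.38 ± 0.43 (adjusted p = 0.375). Its 2 clones were unlike in liver, with differences of -2.45 on the first and -0.30 on the second. The 3 genes whose liver groups overlapped were H3F3C, SNRK and PWP1.

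The species difference itself was then compared between tissues. The hypothalamus difference minus the liver difference was called for 0 of 18547 probes and 0 of 6428 genes by limma, with 287 probes (1.55%) and 110 genes (1.71%) at an unadjusted p under 0.05 and a lowest adjusted p of 0.605 for probes. For the called probes it ran from -2.24 to 0.06 with a median of -0.93, on the side that their selection in hypothalamus favours. Across all probes the hypothalamus and liver differences had a Pearson correlation of 0.34 and a Spearman correlation of 0.25. This correlation is across 18547 probes that share slides and a chicken pool as reference, not across independent replicates.

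**Figure D3:**
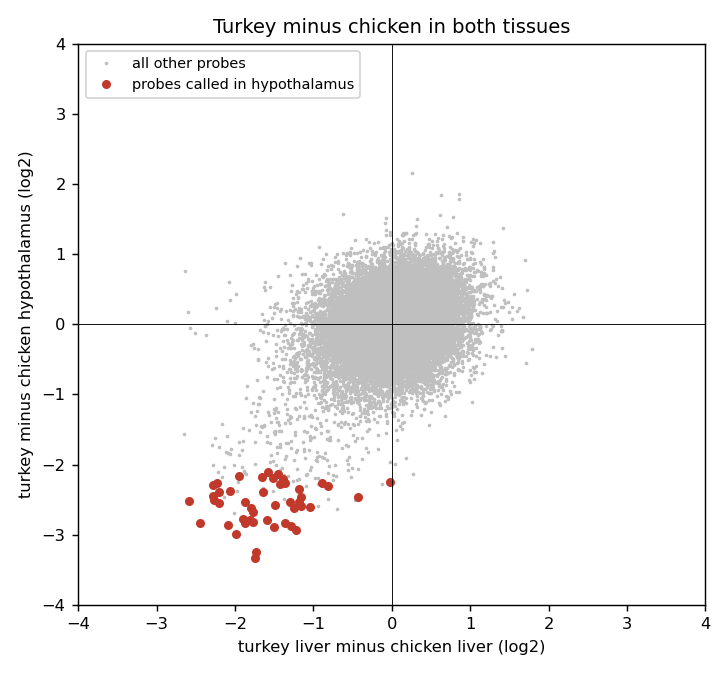
Turkey minus chicken difference (log2) of each probe in hypothalamus (y axis) against that in liver (x axis); red points are the 46 probes called in hypothalamus, grey points all others. The red points lie at -2.10 or lower on the y axis, which their choice sets, and between -2.58 and -0.02 on the x axis.

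Read on every group of the study, the 46 probes had a median of -2.08 in turkey hypothalamus and 0.37 in chicken hypothalamus. The median was -1.82 in quail hypothalamus and -1.92 in duck hypothalamus. In liver it was -1.91 in turkey, -2.17 in quail, -2.29 in duck, -1.99 in kestrel and -1.10 in sparrow, against -0.22 in chicken. In chicken muscle and fat, both labelled 6 weeks of age, it was -0.58 and -0.19. The 2 single arrays outside this order were the ones labelled chicken muscle replicate 4, at -1.82, and sparrow liver replicate 1, at -0.02, which also carry the marker mismatch given above.

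**Figure D4:**
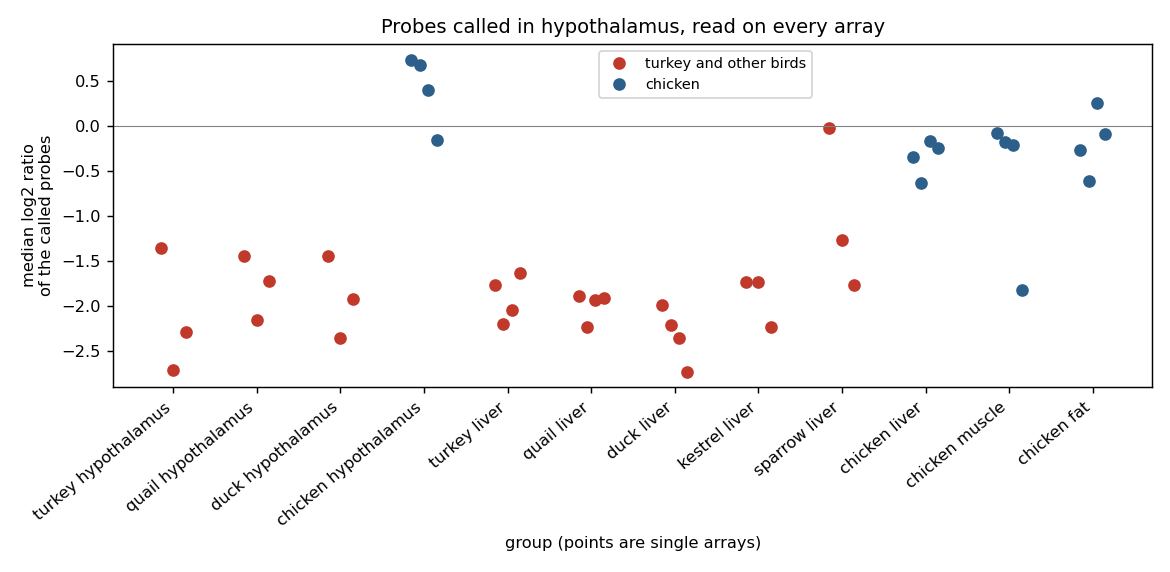
Median log2 ratio of the 46 called probes (y axis) on each of the 43 arrays, grouped by bird and tissue (x axis; blue chicken, red other birds). Chicken arrays lie between -0.63 and 0.74 except the array labelled chicken muscle replicate 4, and the other birds between -2.73 and -1.26 except the one labelled sparrow liver replicate 1.

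Turkey hypothalamus was also set against quail and duck hypothalamus. Between turkey and quail 0 of 6428 genes were called by limma, with 56 (0.871%) at an unadjusted p under 0.05, and between turkey and duck 0, with 303 (4.71%). With array weights the counts were 14 and 56 genes, so these counts of 0 depend on the weighting. ARIH1 averaged -1.52 ± 0.50 in turkey hypothalamus, -1.71 ± 0.48 in quail and -2.27 ± 0.93 in duck (SD, n = 3 each), against 0.80 ± 0.31 in chicken (n = 4). The duck values include replicate 3, an array in doubt, on which ARIH1 read -3.16. CAMKK2 averaged -2.31 ± 0.44 in turkey, -1.84 ± 0.11 in quail and -2.09 ± 0.61 in duck, against 0.23 ± 0.82 in chicken. The comparisons of the 3 birds with chicken share the 4 chicken arrays, so these means are given side by side only.

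No gene was called higher in turkey. Of the 15 uncalled genes of lowest p whose turkey arrays all lay above the chicken arrays, TMEM268 differed by 1.15 ± 0.40, with 0.53, 0.83 and 1.82 in turkey against -0.23, -0.31, -0.12 and 0.29 in chicken (adjusted p = 0.819). CLIC4, an intracellular chloride channel protein, differed by 1.21 ± 0.43 (adjusted p = 0.87), and LPCAT3, which puts acyl chains on lysophospholipids, by 1.19 ± 0.47. GPX8, a peroxidase of the endoplasmic reticulum, differed by 1.15 ± 0.45 and COG1, of the Golgi tethering complex, by 1.06 ± 0.37. CYCS, cytochrome c, differed by 0.86 ± 0.35 and STMN1, which destabilises microtubules, by 0.75 ± 0.33. The others were PLA1A, OLFML2B, LAMTOR3, KLF11, C12orf65, ANKRD13A, ANKRD1 and ATP11B, at 0.68 to 1.05. Such groups without overlap were seen for 1.76% of genes upward and 2.29% downward, so none of these stands apart from the background. Apart from CLIC4, in row 1 of the print block, the highest clone of each of the 15 genes lay in rows 8 to 13. The median difference of those rows over all spots ran from 0.06 to 0.27. The clones of CYCS differed by 1.29 and 0.43 and those of STMN1 by 1.22 and 0.29, the lower clone of each with overlapping groups.

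Downward, 6 uncalled genes filled the named set. NT5M, a mitochondrial nucleotidase, differed by -2.18 ± 0.50 and was not called as a gene (adjusted p = 0.0537), although its only clone was called among probes (adjusted p = 0.0421), and DSG2, a desmosomal cadherin, by -2.38 ± 0.58 (adjusted p = 0.088). MYH9, a nonmuscle myosin, differed by -2.26 ± 0.54, C4orf48 by -1.84 ± 0.45, and ATP8A2, a lipid flippase of neurons, by -1.65 ± 0.38. FZD1, a Wnt receptor, was read by 2 clones and differed by -1.26 ± 0.30 (adjusted p = 0.0703). Of its clones, 1 differed by -1.77 ± 0.54 in hypothalamus and -2.05 in liver. The other differed by -0.74 ± 0.52 with overlapping groups, and by 0.38 in liver. As gene means, all 6 were also lower in turkey liver, and ATP8A2 was the only one that missed an unadjusted p under 0.05 there. Of all genes, 3.61% were lower in liver at that p. The clones of NT5M, DSG2 and MYH9 lay in row 3 and that of C4orf48 in row 2, rows that also reached low in liver. A spot of the ATP8A2 clone and a spot of the lower FZD1 clone lay in row 6. The C4orf48 difference in liver was -2.09 ± 0.42 and was called there (adjusted p = 0.0288 by limma).

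No gene of hypothalamic peptide signalling was called. Of 53 listed neuropeptides, hormones and processing enzymes 20 were measured, and none passed the test. With only 0.14% of all genes called, 0 of 20 does not set this list apart. The median difference of the 20 was -0.18, against 0.00 for all genes, and the range was -1.02 to 0.42. Below 0 lay 16 of the 20, or 80%, against 49.6% of all genes. NPY, which promotes feeding, read 0.85, -0.28 and -0.26 in turkey, against 1.94, 1.35, 0.25 and 0.94 in chicken, a difference of -1.02 ± 0.62 with overlapping groups. POMC read 0.13, 0.22 and -0.97 in turkey, against -0.24, -0.08, -0.10 and -0.30 in chicken, a difference of -0.03 ± 0.41. PTPRN, of dense-core vesicles, differed by 0.42 ± 0.48 and CALCA, the calcitonin gene, by 0.41 ± 0.60. SCG5, a chaperone of a prohormone convertase, differed by -0.82 ± 0.53 and TAC1, the substance P precursor, by -0.81 ± 0.63.

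The other peptide genes lay within these bounds. PENK, the enkephalin precursor, differed by 0.33 ± 0.43, PNOC, that of nociceptin, by -0.24 ± 0.35, and ADCYAP1, the peptide PACAP, by -0.09 ± 0.30. NMU, neuromedin U, differed by -0.23 ± 0.64 and NUCB2, the nesfatin precursor, by 0.19 ± 0.30. NENF differed by -0.03 ± 0.58. Of the enzymes that cut or trim the precursors, PCSK1 differed by -0.16 ± 0.44, PCSK2 by -0.51 ± 0.60, CPE by -0.53 ± 0.33 and PAM by -0.23 ± 0.42. The granins CHGA, CHGB, SCG2 and SCG3 differed by -0.14, -0.20, -0.06 and -0.53. All 20 had overlapping groups, where 1.76% of all genes lay higher and 2.29% lower without overlap. No adjusted p of the 20 was far from 1.

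Receptors and synaptic genes gave single uncalled differences. In the list of energy balance and endocrine receptors, 23 genes were measured and CAMKK2 was the only one called, against 0.14% of all genes. The call of CAMKK2 cannot be weighed against this share, because the list was chosen with earlier results of these data known. GHR, the growth hormone receptor, differed by -0.94 ± 0.47 and AKT1, a kinase of insulin signalling, by 0.74 ± 0.39. Among 50 neuronal and synaptic genes 0 were called, against 0.14% of all genes, and the median was -0.15. At an unadjusted p under 0.05, 3 of the 50 were lower, against 2.27% of all genes. STX1A, the syntaxin of transmitter release, was the lowest, with -1.70, -0.85 and -2.65 in turkey against 0.31, 0.83, -1.03 and -0.45 in chicken, a difference of -1.65 ± 0.48 (adjusted p = 0.329). DPYSL2, of axon growth, differed by -1.19 ± 0.43, while CALB2, the calcium buffer calretinin, differed by 0.61 ± 0.38. Of 20 transmitter genes 0 were called, with a median of -0.23. GRIN1, an NMDA receptor subunit, differed by -0.95 ± 0.55, and ABAT, over both of its clones, by -1.33 ± 0.35 (adjusted p = 0.162).

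No gene of glia was called, which does not set the lists of glia apart, as only 0.14% of all genes were called. GFAP, the astrocyte filament, read -0.31, -1.17 and -1.11 in turkey, against 1.13, 1.32, -0.31 and 0.40 in chicken, a difference of -1.50 ± 0.46 that was not called (adjusted p = 0.419). Its turkey values lay below all chicken values, but turkey replicate 1 (-0.310) and chicken replicate 3 (-0.309) were nearly equal. The median over 18 genes of astrocytes, ependyma and choroid plexus was -0.40, while ALDOC, an aldolase of astrocytes, differed by 0.62 ± 0.33. Over 22 oligodendrocyte and myelin genes it was 0.02. MBP, myelin basic protein, read 1.42, 1.94 and 0.60 in turkey, against 0.30, 0.89, 0.39 and 0.81 in chicken, and CNP, another myelin protein, 0.15, -0.33 and -1.19 in turkey against 0.53, 1.94, 0.56 and 0.75 in chicken. MBP thus lay higher on 2 turkey arrays than on any chicken array, and CNP lower on all 3.

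Genes of blood, vessels and neighbouring tissue were listed to read the dissection. In the lists of leukocyte and microglia, vessel wall, erythrocyte, pituitary, liver, muscle and fat genes no member was called, against 0.14% of all genes, and medians ran from -0.29 for pituitary to 0.08 for muscle. SPTB, the spectrin of red cells, differed by 1.21 ± 0.59, PECAM1 of endothelium by -1.20 ± 0.58, and POU1F1, the pituitary factor, by -1.20 ± 0.41 with groups that did not overlap (adjusted p = 0.797). B2M, of the MHC class I complex, differed by -0.77 ± 0.35. Their part in the called differences was not tested.

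In the housekeeping lists the counts are to be read against the 0.14% of all genes that were called. The 46 genes of ubiquitin conjugation, cullins and RBR ligases included ARIH1 as the only called member, with a median of -0.03. This list was chosen with earlier results of these data known, so the call of ARIH1 cannot be weighed against that share. CUL2, a cullin, differed by -1.49 ± 0.49, with -1.45, -1.60 and -2.54 in turkey against 0.36, 0.36, -1.31 and -0.92 in chicken (adjusted p = 0.646). Of 34 proteasome genes 0 were called, the median was 0.14, and PSMD6 was the highest at 0.99 ± 0.48. Of 44 cytosolic ribosomal proteins 0 were called, the median was -0.25 and 30 lay below 0, or 68.2%, against 49.6% of all genes. TRA2B, a splicing factor, differed by -2.07 ± 0.56 (adjusted p = 0.191) and its relative TRA2A by -1.25 ± 0.53. Of 42 genes of oxidative phosphorylation, 29 of cholesterol and fatty acid synthesis, 11 of the circadian clock and 23 of heat shock and immediate early response, 0 were called. The clock gene CLOCK differed by -0.75 ± 0.39.

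**Figure D5:**
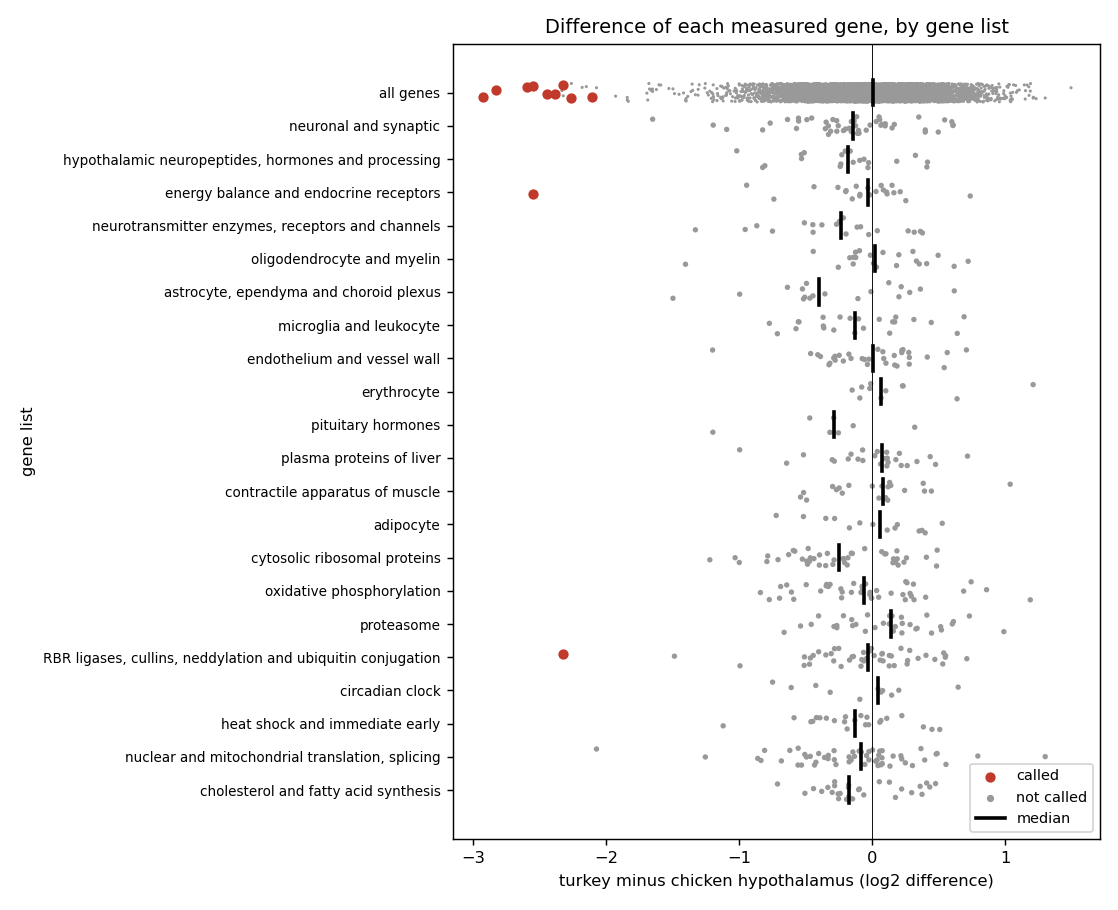
Turkey minus chicken difference (x axis, log2) of each measured gene in hypothalamus, for all genes and for each gene list (rows); red points are called genes and black bars medians. CAMKK2 and ARIH1 are the only red points among the lists, whose medians lie between -0.40 and 0.14.

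Chromosome Z, the sex chromosome carried in 2 copies by males and 1 by females in birds, held 247 measured genes with a median difference of -0.02, against 0.01 for 6080 genes on numbered chromosomes. SMIM15 was the only called gene of the 247 on Z, against 8 of the 6080 on numbered chromosomes and 0.14% of all genes. The sex of the turkeys is not stated. The SD over probes averaged 0.81 ± 0.18 on the turkey arrays and 0.70 ± 0.15 on the chicken arrays (SD, n = 3 and 4), a difference that an exact two-sided permutation test did not separate from 0 (p = 0.486; the smallest possible is 0.0286).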

How the data were processed

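The values are 2-colour array readings of 43 samples, 7 of them analysed for this comparison. The authors deposited 1 ratio of the channels per spot and array; no source used here gives image software, background correction, normalization or numerator, and scale between arrays and centring stay unknown. Spot intensities were not used here, which leaves signal over background unknown; precision is limited by how many arrays there are. The ratio is read as sample over pool from the markers, so the direction is likely, not stated; the lowest correlation between any 2 of the 43 arrays was -0.397, and no array was turned round. Each of 19200 spots was put on the log2 scale and each array centred on its median. Spots of a clone were averaged to 18547 probes, and 10601 spots with 1 gene symbol gave 6428 genes; 8599 spots are unnamed here. Symbols followed the deposited platform annotation, updated through the RefSeq gene table of GRCg7b. Limma 3.58.1, run in R 4.3.3, took the 43 arrays in one model of 12 group means (31 residual degrees of freedom), with eBayes and Benjamini-Hochberg adjustment, and was tested on simulated data. A gene or probe was called at an adjusted p under 0.05.

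Members, gene lists and named genes were chosen with earlier results of these data known. Named genes were all called genes, filled to 15 a direction with uncalled genes of lowest p whose groups did not overlap, the largest 15 called probes (at most 2 unnamed), the extremes of each list, ARIH1 and every measured peptide gene. Plots used Python 3.11.15 with matplotlib 3.10.9, pandas 2.3.3 and numpy 2.4.6. Alternatives were the arrays in the fit, centring, scale, quantile normalization, print blocks, array weights, robust moderation, repeat spots, the replicate block and leaving out each array. Replicate numbers were not used as pairs in the main model. Deviations from the group mean correlated at 0.51, -0.07 and 0.52 between same-numbered turkey and chicken arrays. Turkey replicate 1 gave 0.47 with chicken replicate 2 and -0.54 with chicken replicate 3. Turkey replicate 3 gave 0.38 with chicken replicate 4 and -0.51 with chicken replicate 1. Whether arrays of the 2 birds shared a set of slides was not tested.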

Additional observations from a re-analysis of the deposited data

Results flagged for a closer look

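Of 164 sets of 4 chicken hypothalamus values tested for a sample far from the others, 5 held one, which is 3.05%, where chance gives about 1 in 20. CALCA read 0.400 on chicken replicate 1, against -0.784 to -0.657 on the other chicken arrays. CNP read 1.94 on chicken replicate 2, against 0.530 to 0.748. SCG3 read 1.16 on chicken replicate 3, against 0.216 to 0.322. ACLY read 0.133 on chicken replicate 3, against -0.420 to -0.326. The median of the energy balance and endocrine receptor list was 0.114 on chicken replicate 3, against 0.0660 to 0.0733 on the others.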

How the results depend on the processing

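The main settings called 46 probes and 9 genes. The calls numbered 73 probes with only the 7 arrays, 95 probes and 19 genes without the 3 arrays in doubt, 2 probes and 0 genes without centring, 2 and 0 at equal median absolute deviation, 171 and 29 with array weights, and 62 and 11 after quantile normalization. Leaving out 1 array gave 0 to 81 probes and 0 to 9 genes. With the replicate number as a block, 84 probes and 12 genes were called, all 46 main probes and all 9 main genes among them. Probes called higher in turkey numbered 5 with array weights. The number was 1 with only the 7 arrays, 1 without the 3 arrays in doubt and 1 with this block. It was 0 in every other setting. Without centring the median of all genes was 0.24, against 0.00 with it. Of the called probes, 93.5% were lower in turkey liver at an unadjusted p under 0.05, 75.8% after quantile normalization and 73.7% with array weights. The share was 100% without centring and at equal median absolute deviation, each time of only 2 called probes. With 1 array left out it was 77.8% to 100%, where the values of 100% rest on 1 or 2 called probes. Without turkey replicate 2, 0 probes were called, so that setting gives no share. The hypothalamus minus liver difference called 0 probes, and 0 to 1 with 1 array left out. Turkey against quail and duck called 0 genes, but 14 and 56 with array weights, and 0 with a turkey array left out. The SD difference of 0.11 ran from 0.00444 to 0.173 with 1 array left out. The 9 genes stayed past the threshold in 91 of their repeats and fell short in 71, with no change of direction. Where a value moved, the cause was not tested.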
